A study of Rattus rattus with 18 samples.

Results

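The microRNAs of the imprinted Dlk1-Dio3 locus were measured in rat brain on single-colour arrays that carry 761 rat miRNA probes. Members were chosen by name alone: 44 miRNA numbers that general knowledge places at this locus were listed, and every probe with one of these numbers was kept, whatever its letter or hairpin arm. The rule found 89 member probes, 41 of the 5p arm, 41 of the 3p arm and 7 whose names give no arm. Of these, 79 were detected on at least 3 of the 18 arrays and entered the tests, among 532 probes tested in all. The other 10 stood at or near background: 2 were detected on no array and 8 on 1 or 2 arrays. No measured value was used to choose members, but the list was drawn up with earlier results of these arrays known.

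The arrays came from 9 male Sprague Dawley rats, each giving 1 array of a region labelled core and 1 of a region labelled peri. In 3 rats a filament had closed the middle cerebral artery and was then withdrawn (transient middle cerebral artery occlusion, tMCAO), and 3 rats were sham-operated. The labels of 3 more name remote limb postconditioning (PostC), brief closure of limb arteries, and the sources used here do not say plainly whether these rats had tMCAO as well. No genetic change and no drug treatment other than anesthesia is named for any group. The sample labels place core in the temporo-parietal cortex and peri in the striatum, whereas the methods of the study place the core in the striatum, so the regions are called core and peri only. The organism field reads Rattus rattus, although the strain and the probes are those of Rattus norvegicus. For the transient model the methods name more than one time of tissue collection after reperfusion, without saying which holds for the arrays, and the age of the rats is not given in the sources used here. The rat was the replicate, numbered in the sample titles, and a rat mean is the mean of the core and peri arrays of 1 number.

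The Dlk1-Dio3 domain codes for proteins from the paternal chromosome, among them Dlk1, Rtl1 and the deiodinase Dio3, and for long non-coding transcripts from the maternal one. Its miRNAs are cut from those maternal transcripts: a group antisense to Rtl1, which includes miR-127, miR-136, miR-431, miR-433 and miR-434, and a long row of hairpins from miR-379 to miR-410 within the Mirg transcript. The cluster is present only in placental mammals, is abundant in brain, and several of its miRNAs, miR-134 and miR-329 among them, are known for roles in dendrites and spines of neurons. Because many hairpins can be cut from one transcript, a change in transcription would be shared by them, while each mature arm also has its own processing and turnover.

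The mature sequences of the members that the results turn on are shown as the array files give them as probe targets, 5′ to 3′, with the seed (bases 2 to 8, the part that pairs with target mRNAs) in capitals. The first 6 are the members that differed between tMCAO and sham-operated rats, and the last 3 show a shared seed and a close relative.
miR-433-3p: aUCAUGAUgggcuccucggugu
miR-381-5p: aGCGAGGUugcccuuuguauau
miR-329-3p: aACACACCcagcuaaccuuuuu
miR-376a-3p: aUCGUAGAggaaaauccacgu
miR-758-5p: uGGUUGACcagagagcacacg
miR-494-5p: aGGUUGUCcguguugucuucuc
miR-496-5p: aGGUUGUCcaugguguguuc
miR-410-5p: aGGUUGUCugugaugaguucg
miR-376b-3p: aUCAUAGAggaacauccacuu

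The seeds were nearly all different. The 89 members had 83 distinct seeds, and only 5 seeds were shared, by 11 members in all. The seed GGUUGUC was held by 3 members and by no other probe of the array, namely miR-410-5p, miR-494-5p and miR-496-5p. The seed UGGAUAU was held by miR-376b-5p and miR-376c-5p, whose targets differ by 2 edits, and the seed AUACAAG by miR-381-3p and miR-539-3p. The 2 remaining shared seeds belong to the arms of miR-299a and miR-299b, whose targets differ by 3 edits in the 5p arm, while the 3p target of miR-299b is a shorter copy of that of miR-299a. The targets of miR-376a-3p and miR-376b-3p, and those of miR-379-3p and miR-411-3p, also differ by 3 edits. How far such probes bind each other's target on the array is not known.

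The arrays differed in quality, and this touched the members. Detection on an array meant that the median of a probe's 4 spots lay more than 3 scaled median absolute deviations above the level of the 612 empty spots, taken at their median. Between 188 and 605 probes were detected per array, and between 36 and 84 of the 89 members. All sham arrays had 318 or more probes detected, whereas 4 of the 6 tMCAO arrays had 233 or fewer. Empty spots outshone miRNA spots, comparing medians, on 5 arrays: core and peri of tMCAO rat 3, core of PostC rats 1 and 2, and peri of PostC rat 3. Only 26 members were detected on all 18 arrays, of 141 probes in all. Of the 79 tested, 60 were detected on all 6 sham arrays, and 12 were detected on no tMCAO array, so that their tMCAO values are bounds set by background. These 12 met the detection filter through sham and PostC arrays only, so the filter is not neutral for a call as lower in tMCAO.

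**Figure D1:**
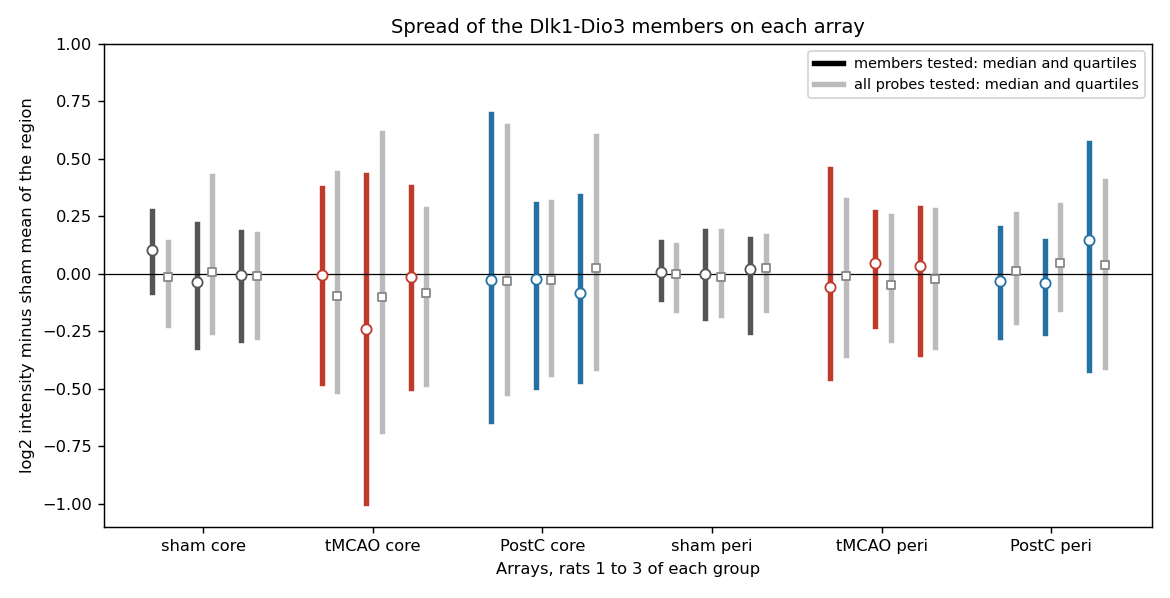
Median (open symbols) and quartiles (bars) of the log2 intensity minus the sham mean of the same region, for the 79 members tested (coloured) and all 532 probes tested (grey), on each of the 18 arrays; sham arrays enter their own mean. The medians of the members stay near 0, between -0.24 and 0.15, while their quartiles are wider on most tMCAO and PostC arrays than on sham arrays.

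The locus did not shift as a block after tMCAO in the rat means. On the log2 scale, 37 members were higher and 42 lower in tMCAO than in sham-operated rats, and their median change was -0.049, against -0.018 over all probes tested. The share of members above 0 was 46.8%, and of all probes 47.6%. The changes of the members ran from -2.17, a fitted value against background, to 1.26 with an SD of 0.60, where all probes had an SD of 0.65. Over the 36 members detected on all 12 tMCAO and sham arrays they ran from -1.55 to 1.26. Rat by rat, the median member differed from the sham mean by -0.023, -0.16 and -0.056 in the 3 tMCAO rats, and by 0.033, -0.013 and -0.038 in the 3 sham-operated rats themselves. Under median scaling, in place of the cyclic loess used here, the split was 16 higher and 63 lower; that scaling moved the median of all probes to -0.21 and the members' median to -0.48, which is -0.27 relative to all probes. In the authors' own normalized intensities 31 members were higher and 48 lower, with a median 0.013 above that of all probes.

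Single members did change, in both directions. In tMCAO against sham, 6 of the 79 members passed an adjusted p of 0.05 (limma, Benjamini-Hochberg over 532 probes), where 11.8% of all probes passed. Of the 6, 3 were higher, against 4.51% of all probes, and 3 lower, against 7.33%. The values of the 2 groups were fully apart in 30 members, 38% of those tested against 41% of all probes. At an unadjusted p of 0.05, 20 members passed, 25.3% against 31.4%. By each of these counts the share among members lay below that of all probes.

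**Figure D2:**
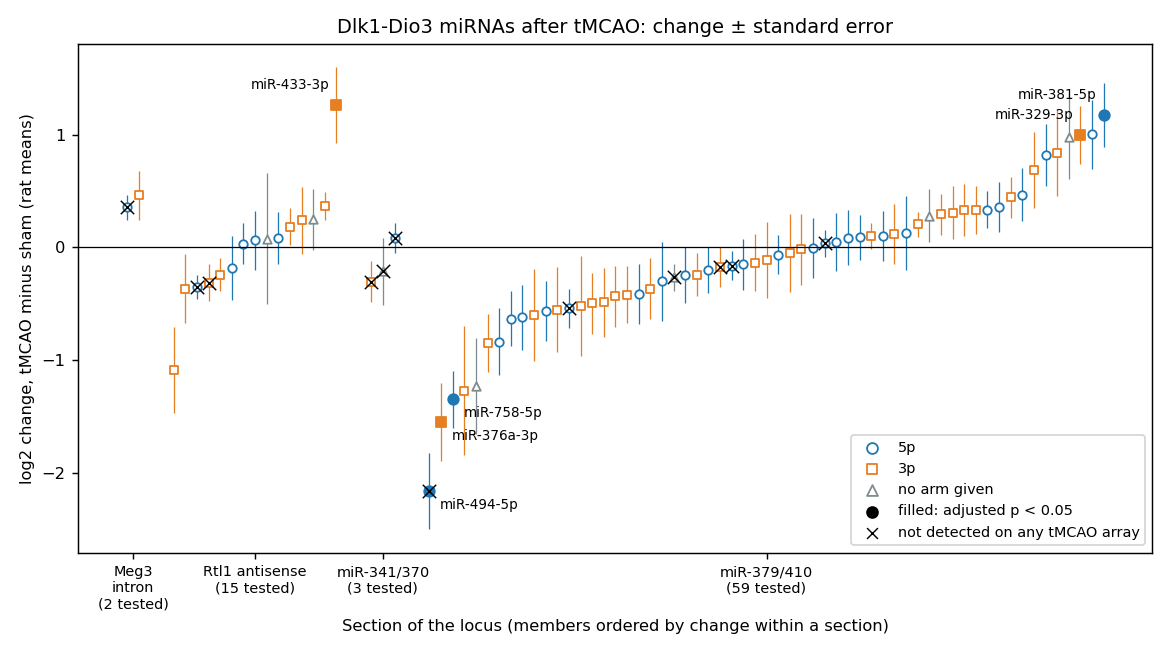
Log2 change in rat means, tMCAO minus sham, ± standard error (n = 3 rats each) for the 79 members tested, grouped by section of the locus and ordered by size within each. Filled symbols mark the 6 members past an adjusted p of 0.05; crosses mark the 12 members not detected on any tMCAO array, whose plotted change is a fitted value against background and not a measured fold. Rises and falls occur side by side within the Rtl1 antisense and the miR-379/410 sections.

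Among the members that rose, miR-433-3p lies antisense to Rtl1. Its log2 intensity was 9.50, 9.33 and 9.39 in the sham-operated rats and 10.78, 11.06 and 10.18 in the tMCAO rats. All tMCAO rats stood above all sham-operated rats, and the member was detected on every array. The log2 change was 1.26 ± 0.34 (SE, n = 3 rats each; adjusted p = 0.0352). In the PostC rats it read 10.88, 9.91 and 9.79, between the other groups in mean, and neither difference of PostC passed the test (0.78 against sham, adjusted p = 0.307).

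The second rise was in miR-329-3p, one of the activity-regulated miRNAs of the miR-379/410 row, detected on all 18 arrays. It measured 11.11, 10.96 and 11.17 in sham-operated rats, 12.12, 12.35 and 11.77 in tMCAO rats and 12.28, 11.60 and 11.50 in PostC rats. Both other groups lay wholly above sham. The log2 change in tMCAO was 1.00 ± 0.26 (adjusted p = 0.0337), and that in PostC, 0.71 ± 0.26, did not pass (adjusted p = 0.29).

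The third, miR-381-5p, also of the miR-379/410 row, was close to background. It was detected on 4 of 6 sham and on 4 of 6 tMCAO arrays. Its values were 7.45, 6.63 and 7.32 in sham-operated rats and 7.98, 8.24 and 8.71 in tMCAO rats, with no overlap and a log2 change of 1.18 ± 0.29 (adjusted p = 0.0265). A single array, peri of tMCAO rat 3, reached 9.79, while the other 5 tMCAO arrays lay between 7.64 and 8.37. The array with the high value is among those whose empty spots were brighter than the miRNA spots.

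Of the members that fell, miR-376a-3p was detected on all sham and all tMCAO arrays. It stood at 10.38, 10.29 and 10.75 in sham-operated rats and at 8.68, 8.82 and 9.27 in tMCAO rats, a log2 change of -1.55 ± 0.34 (adjusted p = 0.0178). The groups were fully apart in both regions. The 3 core arrays of tMCAO read 8.32, 8.22 and 8.87, against 10.38, 9.89 and 10.73 in sham. PostC rats were spread over 9.58, 10.92 and 10.03, and their log2 difference from tMCAO, 1.25 ± 0.34, did not pass (adjusted p = 0.0614). Its close relative miR-376b-3p, shown above, changed by -0.60 in tMCAO and did not pass (adjusted p = 0.326).

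The tMCAO rats lay close together for miR-758-5p. Sham-operated rats read 9.72, 10.19 and 9.72, and tMCAO rats 8.50, 8.55 and 8.54, a log2 change of -1.35 ± 0.25 (adjusted p = 0.00951). PostC rats read 10.54, 10.05 and 9.87, wholly above tMCAO. It was detected on all 6 sham arrays, on 4 of 6 tMCAO arrays and on 5 of 6 PostC arrays.

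The lowest fitted value belonged to miR-494-5p, which was detected on all 6 sham arrays and on no tMCAO array. Sham-operated rats measured 8.41, 9.90 and 8.80, and tMCAO rats, not above background, 7.14, 6.87 and 6.60. Against the detection floor of the tMCAO arrays the member was at least 2.46-fold lower in tMCAO. This held in each region as a bound, at least 3.15-fold in core and at least 1.92-fold in peri. The limma p-values belong to the fitted changes and not to these bounds. In rat means the adjusted p was 0.00555, and neither region passed alone (adjusted p = 0.17 and 0.178). The member met the detection filter only through sham and PostC arrays, so its call as lower in tMCAO is not independent of that filter.

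**Figure D3:**
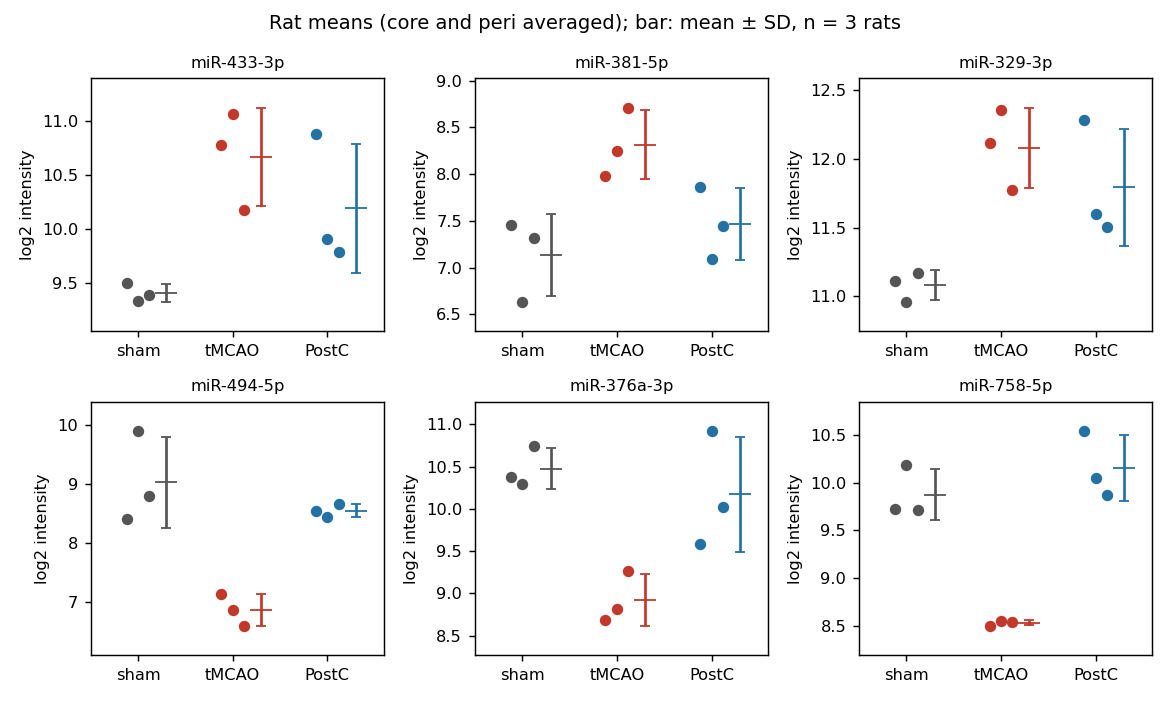
Log2 intensity in rat means of the 6 members that passed in tMCAO against sham, 1 point per rat and a bar for mean ± SD (n = 3 rats); the vertical axes differ and do not start at 0. The tMCAO rats lie wholly above sham in the upper row and wholly below it in the lower row, and PostC rats lie above tMCAO for miR-494-5p, whose tMCAO values are all background, for miR-376a-3p and for miR-758-5p.

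These calls rested on few rats. Without tMCAO rat 2, 1 member remained past the threshold, miR-494-5p (adjusted p = 0.0299), where 1.5% of all probes passed, and miR-758-5p stood at an adjusted p of 0.0599. Leaving out tMCAO rat 1 or sham-operated rat 3 left 3 members past it each, beside 5.26% and 8.65% of all probes, and leaving out tMCAO rat 3, both of whose arrays had bright empty spots, gave 12, beside 18%. All 6 kept their direction under every alternative in which they were tested, but not their size or their call. Under median scaling miR-433-3p changed by 0.57 (adjusted p = 0.214) and miR-329-3p by 0.50 (adjusted p = 0.218), and neither passed, while miR-758-5p changed by -2.07. After plain background subtraction miR-381-5p changed by 3.53 and did not pass (adjusted p = 0.0596). The fitted value of miR-494-5p, which is no measured fold, was -5.39 by plain subtraction and -6.91 in the deposited intensities. Of the alternatives in which each was tested, miR-433-3p passed in 14 of 22, miR-329-3p in 12 of 22, miR-381-5p and miR-376a-3p in 16 of 21, and miR-494-5p and miR-758-5p in 20 of 21.

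Among members that did not pass, the highest values were those of miR-485-5p (1.00, adjusted p = 0.0583) and miR-668 (0.98, adjusted p = 0.0943), and the lowest those of miR-369-3p (-1.27, adjusted p = 0.156) and miR-679 (-1.23, adjusted p = 0.0771). The value of miR-369-3p rested on 1 rat: sham-operated rats read 7.88, 10.28 and 7.87, it was detected on 1 of 6 tMCAO arrays, and without sham-operated rat 2 the change was -0.47 (adjusted p = 0.34). Of the members detected on every array, 4 more that did not pass are given here, picked after their values were seen. Among those not picked, the changes reached -0.63 in miR-411-5p (adjusted p = 0.105) and 0.685 in miR-667-3p (adjusted p = 0.189). For miR-134-5p, which limits the size of dendritic spines, the change was 0.47 (adjusted p = 0.206). For miR-127-3p, which is antisense to Rtl1 and can cut its mRNA, it was -0.24 (adjusted p = 0.284), with sham-operated rats at 13.32, 13.08 and 13.23 and tMCAO rats at 12.88, 13.05 and 12.97. For miR-379-5p and miR-410-3p, at either end of the long row, the changes were 0.10 and -0.11 (adjusted p = 0.779 and 0.834). Under median scaling the sign of miR-134-5p and of miR-379-5p turned, to -0.21 and -0.46, and miR-127-3p passed at -0.55 (adjusted p = 0.0452), its only pass in 22 alternatives. Of the members with the highest and lowest values that did not pass, miR-485-5p passed in 7 of 21 alternatives, miR-668 in 4 of 22, miR-369-3p in 4 of 21 and miR-679 in 3 of 21.

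By section of the locus, as general knowledge places the hairpins, no section was uniform in sign except the smallest, in which only 1 arm was detected in tMCAO. Of 15 members tested antisense to Rtl1, 9 were higher and 6 lower in tMCAO, with a median of 0.063, and 1 passed. Of 59 in the miR-379/410 section, 25 were higher and 34 lower, with a median of -0.11, and 5 passed, 2 higher and 3 lower. Of all probes tested, 47.6% were higher and 11.8% passed. The 3 probes of miR-341 and miR-370 were not detected on any tMCAO array, so their fitted values, between -0.30 and 0.083, are no measured changes. The 3p arm of miR-770, from an intron of Meg3, was higher by 0.46, and the 5p arm had a fitted value of 0.36. Neither passed. The 5p arm was detected on no tMCAO array and on 1 core array of sham, so its value is no measured rise.

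By arm, 17 of 34 members of the 5p arm were higher in tMCAO, with a median of 0.012, and 16 of 38 of the 3p arm, with a median of -0.12. Over all probes of the array the medians were -0.072 for 207 probes of the 5p arm and 0.025 for 221 of the 3p arm. Each arm gave 3 calls among the members, 8.82% of the 5p arm against 13% of all 5p probes and 7.89% of the 3p arm against 7.69% of all 3p probes.

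The arms of one hairpin come from the same precursor, and 32 hairpins had both arms tested. In 19 of them both arms had the same sign in tMCAO against sham, 8 with both higher and 11 with both lower, and in 13 the signs differed. Some hairpins of either kind had an arm at background on every tMCAO array, and their signs are those of fitted values. The share over the other hairpins of the array was not computed, so 19 of 32 is not read as high or low. The median difference between the arms of a hairpin was 0.37 in size. In no hairpin did both arms pass as reported here.

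No partner arm of the 6 members called passed the test as reported here. Where miR-381-5p rose, miR-381-3p changed by -0.85 (adjusted p = 0.0583), with tMCAO rats at 7.82, 7.77 and 8.05, wholly below sham-operated rats at 9.29, 8.49 and 8.41. It was detected on 1 of 6 tMCAO arrays and on all 6 of sham, and it passed in 4 of 21 alternatives, among them quantile normalization (-0.93, adjusted p = 0.0352) and median scaling (-1.36, adjusted p = 0.00797). After quantile normalization, in the deposited intensities and without a variance trend both arms of miR-381 passed, in opposite directions. For miR-758 the arms changed by -1.35 (5p) and 0.33 (3p, adjusted p = 0.307). For miR-433 they changed by 0.032 (5p, adjusted p = 0.916) and 1.26 (3p). The partner of miR-494-5p, miR-494-3p, was detected on all arrays and changed by -0.55 (adjusted p = 0.33). The partners miR-376a-5p and miR-329-5p changed by -0.41 (adjusted p = 0.306) and 0.13 (adjusted p = 0.809), with the sign of the arm called. Whether the arms of a hairpin differed from each other was not tested.

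**Figure D4:**
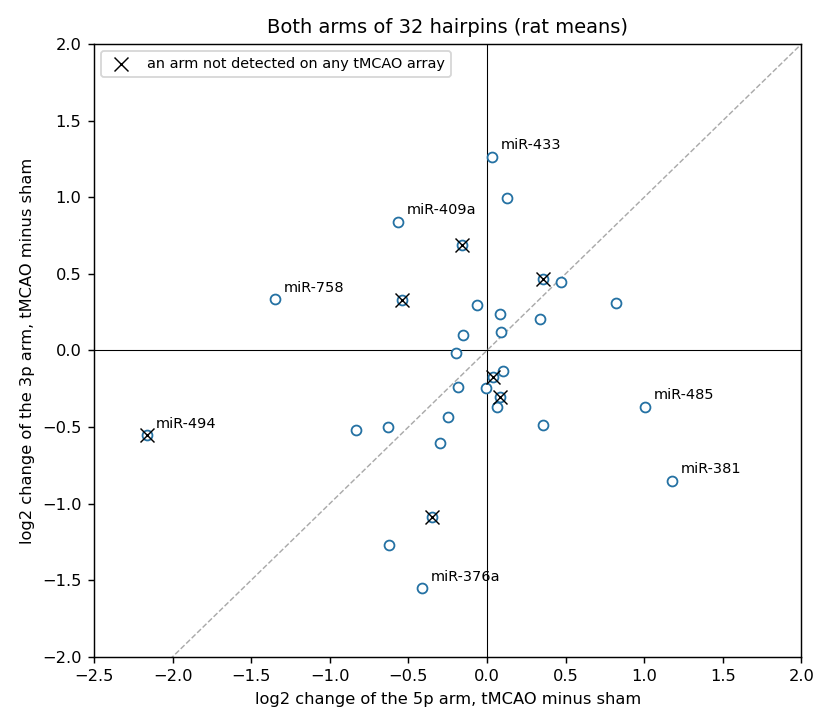
Log2 change of the 5p arm (horizontal) against that of the 3p arm (vertical) in rat means, tMCAO minus sham, for 32 hairpins with both arms tested; the dashed line marks equal change and names mark hairpins whose arms differ by more than 1. A cross marks a hairpin with an arm at background on all tMCAO arrays. The points fill all 4 quadrants, with 19 of 32 in those of equal sign.

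In the core region alone no member passed in tMCAO against sham, where 3.38% of all probes passed, and before adjustment 13 members stood under 0.05 (limma), beside 21.8% of all probes. By the methods' t-test none was called either. The median change was -0.13 over the members and -0.055 over all probes. There, 33 members were higher and 46 lower, 41.8% higher against 46.6% of all probes. In 31 members the 3 core arrays of each group did not overlap, 39.2% against 41% of all probes. The highest values were those of miR-433-3p (1.64, adjusted p = 0.152) and miR-409a-3p (1.60, adjusted p = 0.142), and among members detected on all 6 core arrays the lowest was that of miR-136-3p (-2.02, adjusted p = 0.135).

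In the peri region no member passed in tMCAO against sham either, where 0.564% of all probes did, and 14 members stood under 0.05 before adjustment, beside 15.2% of all probes; none was called by the methods' t-test. The split was 39 higher and 40 lower with a median of -0.0043, 49.4% higher against 48.5% of all probes, and 28 members did not overlap, 35.4% against 31.6% of all probes. Under median scaling, which moved the median of all peri probes to -0.42, 11 were higher and 68 lower, with 20 called lower and 1 higher, where 24.1% of all probes were called under that scaling. That shift left the members' median at -0.27 relative to all probes.

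Between the regions, 49 of the 79 members had the same sign of change, 62% against 67.7% of all probes, 21 higher in both and 28 lower in both. In 12 members the groups did not overlap in either region and the direction was shared, 15.2% against 16.2% of all probes. These include all 6 members called in the rat means, which come from the same arrays, with miR-485-5p, miR-543-5p, miR-679, miR-496-5p, miR-136-5p and miR-409b. The last 3, like miR-494-5p, were at background on every tMCAO array. Of the sham arrays, 6 detected miR-494-5p, 5 miR-496-5p, 3 miR-136-5p and 1 miR-409b, so that for miR-409b mostly background is set against background. Whether the change differed between core and peri was tested directly. No member passed, as no probe of the array did (0%), with 6 members at p under 0.05 before adjustment (8.65% of all probes) and none called by the methods' t-test. The smallest p value belonged to miR-409a-3p, which changed by 1.60 in core and 0.083 in peri (difference 1.52 ± 0.44, adjusted p = 0.425).

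In sham-operated rats core and peri did not differ in any member by limma or the methods' t-test, and no other probe passed (0%), while 5 members stood under an unadjusted 0.05, beside 5.45% of all probes. The median member was lower in core by a log2 difference of -0.099, where the median of all probes was 0.019. In 34 members the 3 rats all differed in the same direction, 43% against 42.1% of all probes.

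In the rat means of PostC, too, the locus did not shift as a block. Against sham, 39 members were higher and 40 lower in rat means, with a median of -0.0092 against 0.038 for all probes, 49.4% of the members against 56% of all probes being higher. No member passed, where 0.188% of all probes did; before adjustment 9 stood under 0.05 (limma), beside 14.1% of all probes, and none was called by the methods' t-test. PostC and sham were fully apart in 13 members, 16.5% against 18.2% of all probes. The highest value was again that of miR-433-3p, and the lowest that of miR-136-3p (-1.09, adjusted p = 0.289). By region no member and no probe passed (0% in each), with 11 members in core (16.9% of all probes) and 2 in peri (2.63%) under 0.05 before adjustment and none called by the methods' t-test. Under median scaling 22 members were higher and 57 lower in the rat means, with their median at -0.14 relative to all probes. In core that scaling gave 36 higher and 43 lower. In peri, with 36 higher and 43 lower as reported, it gave 9 higher and 70 lower, at -0.15 relative to all probes. The deposited intensities gave 22 higher and 57 lower in peri, at -0.075 relative to all probes.

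Against tMCAO, which shares its tMCAO rats with the comparison of tMCAO and sham, 3 members passed in PostC, all higher and all of the 5p arm, where 5.64% of all probes passed and 5.08% passed as higher. Of all 5p probes 13 of 207 passed, 11 of them higher, and of all 3p probes 7 of 221. Over the members the median was -0.092, with 34 higher (43% against 51.7% of all probes) and 45 lower, and all probes had a median of 0.015. The neuron-enriched miR-218a-5p, no member, was also higher (1.48, adjusted p = 0.0318). Under median scaling the split was 52 higher and 27 lower. The groups did not overlap in 20 members, 25.3% against 26.1% of all probes.

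The largest measured difference was in miR-758-5p, at 1.63 ± 0.25 on the log2 scale (adjusted p = 0.00644), for the values of each rat given above. For miR-494-5p the PostC rats read 8.55, 8.45 and 8.67, against tMCAO rats at background (adjusted p = 0.0147). For miR-496-5p, which has the same seed, PostC rats read 7.79, 7.74 and 8.01 and tMCAO rats, on no array above background, 7.01, 7.03 and 6.82 (adjusted p = 0.0145). Both were detected on 3 of 6 PostC arrays, so no fold is given for either. Both met the detection filter only through sham and PostC arrays, so these calls are not independent of that filter. The third holder of this seed, miR-410-5p, was detected on 1 PostC array only and was not tested. Without tMCAO rat 2, miR-758-5p alone of the members remained past the threshold (adjusted p = 0.0427), beside 1.69% of all probes, and without PostC rat 3 the count was 5, beside 5.83%.

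Even rat means hid uneven arrays in the PostC group. Array by array, miR-494-5p measured 10.42 in core of PostC rat 3, 9.58 in peri of rat 1 and 10.51 in peri of rat 2, and was not above background on the other 3, at 7.52, 6.38 and 6.92. Each PostC rat thus gave 1 high and 1 background array, and the rat means, 8.55, 8.45 and 8.67, lay close together. The spread between these means, and not that between the arrays, entered the test in rat means. The 3 arrays that measured miR-494-5p had 605, 336 and 524 probes detected, and the 3 that did not had 198, 240 and 188. On the tMCAO arrays, of which core of rats 1 and 2 had 447 and 348 probes detected, it was at background throughout, at 6.79 and 6.77 on those 2. Likewise miR-758-5p read 8.30 and 8.62 there, below every sham array, of which the lowest was 9.21. In peri of PostC rat 3, with 188 probes detected and bright empty spots, it read 8.50, within the range of the tMCAO arrays, and the other 5 PostC arrays lay between 9.65 and 11.24. The part of array quality in the differences between PostC and tMCAO was not tested.

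**Figure D5:**
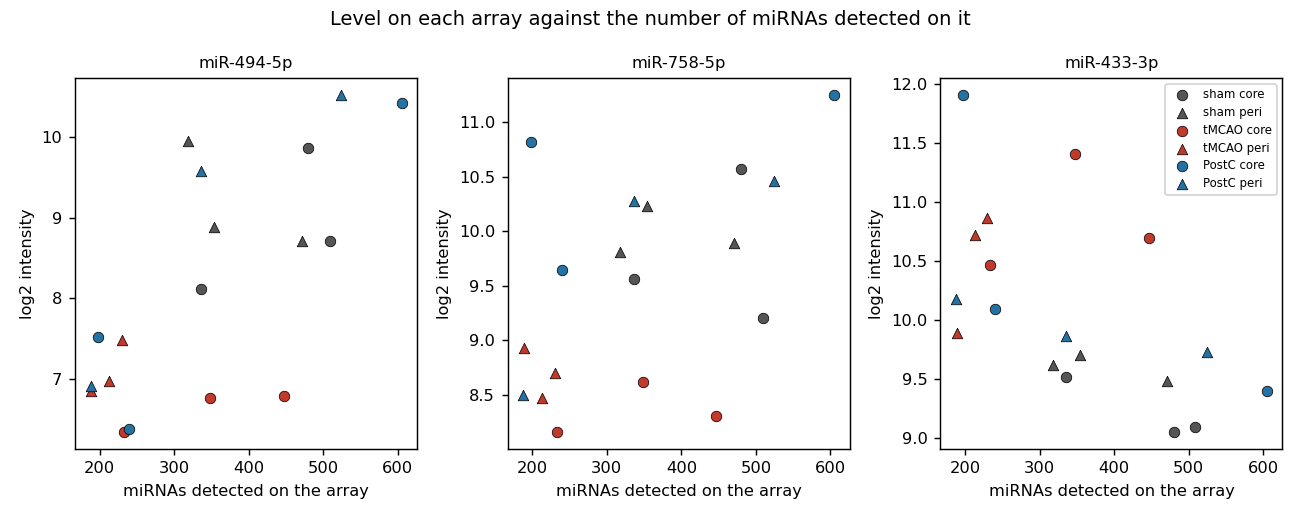
Log2 intensity of 3 members on each of the 18 arrays (vertical) against the number of the 761 miRNA probes detected on that array (horizontal); colour gives the treatment, circles core and triangles peri. The PostC arrays that read high for miR-494-5p are those with 336 to 605 probes detected, while the tMCAO arrays with 348 and 447 detected read at background; the sham arrays lie between 9.05 and 9.70 for miR-433-3p.

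Markers of neurons and of other cell types were measured on the same arrays. Of 8 miRNAs enriched in neurons, 4 fell in tMCAO rat means, namely miR-137-3p, miR-153-3p, miR-218a-5p and miR-9a-5p, and the mean level of the list lay between 12.12 and 12.72 in tMCAO rats and between 13.15 and 13.47 in sham-operated rats. The neuronal miR-124-3p was detected on every array and changed by -0.011, and miR-128-3p by 0.44 (adjusted p = 0.0668). By region the median of the 8 was -1.65 in core, with 2 higher, and -0.058 in peri, with 4 higher, and none passed in either. In PostC against tMCAO 6 of the 8 were higher, with a median of 0.25 and a list level of 12.68 to 13.07 in PostC rats, and miR-218a-5p alone passed. Of 6 miRNAs of leukocytes, 5 were tested and 2 rose, miR-150-5p and miR-155-5p. In core they changed by 1.55 and 1.56 (adjusted p = 0.0318 each), and in peri by 0.29 and 0.18 (adjusted p = 0.692 and 0.501). The values of miR-155-5p are fitted against background, as it was detected on 2 core arrays of tMCAO and on 0 sham arrays. In rat means miR-142-5p changed by -0.28 (adjusted p = 0.319). The list's level was 7.98 to 8.32 in tMCAO and 7.66 to 7.93 in sham, with miR-142-3p at background on all but 1 array. Of 3 of red blood cells, 1 rose, miR-486, detected on 3 core and 0 peri arrays of tMCAO and on 2 core and 1 peri arrays of sham. The other one tested, miR-451-5p, was detected on every array and changed by 0.14 (adjusted p = 0.809). The list level was 8.47 to 8.60 in tMCAO and 8.04 to 8.05 in sham, with miR-144-3p at background on every array. The 2 of oligodendrocytes had a median of -1.65, at 7.58 to 8.01 in tMCAO and 8.47 to 10.70 in sham, and neither passed. Liver miR-122-5p was detected on 1 array, and miR-206-3p of skeletal muscle changed by -0.23 (adjusted p = 0.526). In bulk tissue, fewer cells of a type and less RNA per cell cannot be told apart, and the part of cell composition in the changes of the members was not tested.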

How the data were processed

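Core and peri tissue of 9 rats was profiled on 18 arrays after poly(A) tailing and tagging of total RNA (extracted with miRNeasy per the labels, Trizol per the methods). Per the file headers and the values, the authors deposited the median intensity of each spot, digitized and not normalized, and a table of normalized intensity, linear in scale, for which background had been subtracted and a locally weighted regression applied. No slide or scan batch is given in the sources used here.

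From the spot intensities, background was corrected by normexp (offset 50), log2 values were normalized by cyclic loess with control spots at weight 0, and the 4 spots of a probe were averaged. Precision is limited by how many arrays there are and by their signal, a median miRNA spot of 49.1 to 261 units per array. Probes detected on at least 3 arrays were fitted with limma 3.58.1 in R 4.3.3 (lmFit, eBayes with trend, all 3 treatments in 1 fit) and Benjamini-Hochberg adjustment at 0.05. An exact permutation test of 3 rats against 3 reaches no p below 0.1, so limma carried the tests. Its p-values set a difference against the spread within groups, pooled over the 3 treatments and moderated over probes. With 1 array per rat and region, spread between rats and spread between arrays cannot be told apart. Cyclic loess makes each change relative to the other miRNAs. For a member at background on every array of a group, a fold was given only as a bound, taken against the dimmest detected level of each array. Where a log2 value is printed for such a member, it is a fitted value and no measured fold. The fits were checked on simulated data.

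Members, marker lists and tests were chosen with earlier results of these data known. Named are the members past the threshold, the 5 largest rises and falls in tMCAO rat means, and the partner arms of the 6 members called in them. Of the 26 members detected on all arrays only some are named, picked after their values were seen. The same holds for members named for the regions, for PostC and for a shared seed. Sections of the locus were assigned from general knowledge. No genome of this rat was used here, so no positions are given. Replicate numbers were not taken to pair rats between treatments: the correlation of same-numbered rats' deviations was -0.016, -0.36 and -0.24 for tMCAO and sham, 0.040, -0.16 and -0.41 for PostC and sham, and 0.23, -0.15 and 0.23 for PostC and tMCAO, so that no pair of groups had all 3 above 0.1. Python 3.11.15, pandas 2.3.3 and matplotlib 3.10.9 made counts and figures.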

Additional observations from a re-analysis of the deposited data

Results flagged for a closer look

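In miR-434-5p, antisense to Rtl1, tMCAO and sham arrays did not overlap in either region, and the direction differed. The core arrays read 9.54, 9.57 and 9.48 in tMCAO and 10.04, 10.27 and 9.79 in sham, a log2 change of -0.50 (adjusted p = 0.477). The peri arrays read 10.64, 9.98 and 10.30 in tMCAO and 9.65, 9.68 and 9.57 in sham, a log2 change of 0.67 (adjusted p = 0.501). The test of the difference between the regions gave -1.18 ± 0.69 (limma, adjusted p = 0.655) and did not pass.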

How the results depend on the processing

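The number of members called depended on normalization, on the filter and on single rats; the causes were not tested. In tMCAO against sham rat means, 6 members were called as reported (11.8% of all probes), 16 after quantile normalization (23.3%), 18 after median scaling (24.4%) and 14 in the deposited normalized intensities (23.7%), all 6 among the 16 and the 14, and 3 of them among the 18; percentages here are of all probes tested under the same setting. Among probes detected on all 18 arrays 2 were called (14.9%), by the methods' t-test 1 (4.32%), and 4 after plain background subtraction (8.08%), of which 3 are among the 6. Without the arrays with bright empty spots, a setting chosen after seeing the data that drops tMCAO rat 3, 13 were called (20.7%), the 6 included. Leaving out single rats gave 1 to 12 calls (1.5% to 18%). In core, where none was called, the deposited intensities gave 2 (5.45%), the filter on all arrays 2 (9.93%), a fit of only the groups compared 4 (7.52%), dropping the bright-empty arrays 6 (11.7%), and leaving out single rats 0 to 2, the 2 without PostC rat 1 (4.32%). In peri, with none called, median scaling gave 21 (24.1%), only the groups compared 4 (5.08%), dropping those arrays 8 (9.59%), and leaving out rats 0 to 5, the 5 without PostC rat 3 (6.77%). For PostC against sham in core the filter on all arrays gave 1 (2.13%) and dropping those arrays 3 (9.02%). For PostC against tMCAO, with 3 called (5.64%), the counts were 5 in the deposited intensities (7.71%), 0 with the filter on all arrays (limma; 1 member had an unadjusted p under 0.05; 2.13% of all probes were called), 1 by the methods' t-test (1.13%), and 1 to 5 without single rats (1.69% to 8.65%). The counts for PostC against sham in rat means and in peri, for core minus peri and for sham core against peri were 0 under every alternative run.

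The median change of the members in tMCAO against sham rat means (-0.049) became 0.026 by plain subtraction, 0.066 by quantile normalization, -0.48 by median scaling, -0.22 in the deposited intensities, 0.093 over members detected on all arrays and 0.034 after a GC correction, and ranged from -0.090 to 0.030 without single rats. In core (-0.13) these were 0.070 by plain subtraction, -0.023 by quantile normalization, -0.32 deposited, 0.083 over members on all arrays and -0.017 after GC correction, with -0.15 to -0.0094 without single rats. In peri (-0.0043) they were 0.075, 0.084, -0.69 by median scaling, -0.067 deposited, 0.057 on all arrays, 0.050 after GC correction and -0.060 without the bright-empty arrays, with -0.062 to 0.031 without single rats. PostC against sham (-0.0092) gave 0.050 by plain subtraction, -0.054 by quantile normalization, -0.23 by median scaling and -0.14 deposited. PostC against tMCAO (-0.092) gave -0.016, -0.21 and 0.11 in the same order up to median scaling, and -0.18 over members on all arrays.

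Some members that did not pass turned sign in tMCAO against sham. Under median scaling the number of members higher went from 37 to 16, but only some members were followed singly. Among those followed, the signs of miR-134-5p (-0.21), miR-329-5p (-0.46), miR-379-5p (-0.46), miR-433-5p (-0.37), miR-434-5p (-0.63), miR-496-3p (-0.32) and miR-758-3p (-0.055) turned. Elsewhere miR-410-3p read 0.087 by plain subtraction, 0.091 by quantile normalization and 0.14 after GC correction, and -0.26 to 0.043 without single rats. For miR-433-5p the value was -0.19 in the deposited intensities and -0.027 without the bright-empty arrays, and -0.072 to 0.098 without single rats. For miR-329-5p it was -0.22 to 0.31 without single rats.

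With the replicate number as a block, 5 members were called in tMCAO against sham rat means (8.08%), all among the 6, 3 in PostC against tMCAO (4.14%) and 0 in every other comparison; the call lost was miR-329-3p (adjusted p = 0.0578). No filter, a detection limit from the dimmest miRNA spots and no variance trend kept all 6 calls. Dim arrays limit what can be said of members at background, and the core and peri deviations of the same rat correlated across probes at -0.40, -0.36 and -0.51 in the 3 PostC rats, at -0.14, -0.15 and 0.49 in the tMCAO rats and at 0.16, 0.49 and 0.30 in the sham-operated rats. Between core and peri of differently numbered rats of a group the correlations ran from -0.32 to 0.54 in PostC, -0.43 to 0.54 in tMCAO and -0.48 to 0.30 in sham, so these values do not by themselves tie the core and peri arrays of a rat. In PostC every positive value involved an array of rat 3, its core with peri of rats 1 and 2 (0.54 and 0.29) and its peri with core of rats 1 and 2 (0.28 and 0.42). The pairing comes from the titles, and it enters the errors of the rat means, not their group means. Where core and peri of a rat deviate in opposite directions, their mean varies less, which lowers the errors behind calls in rat means.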
